A study of Mus musculus with 20 samples.

Results

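Planar cell polarity (PCP) is the alignment of cells within the plane of a tissue, and it is set by a small group of conserved proteins that gather on opposite sides of cell contacts. The Frizzled receptors Fzd3 and Fzd6 and the Dishevelled scaffolds Dvl1, Dvl2 and Dvl3 that they recruit sit on one side. The membrane proteins Vangl1 and Vangl2 and their cytoplasmic partners Prickle1 and Prickle2 sit on the other, and Ankrd6 (Diversin) is an ankyrin repeat protein that binds Dishevelled. In the nervous system these proteins are known for axon guidance and for the assembly and upkeep of glutamatergic synapses. The Celsr cadherins, which bridge neighbouring cells, are the remaining core component and are given here only for comparison. The 10 partners of Celsr were taken by gene symbol from the 31053 genes of the files, and all 10 had unique molecular identifier (UMI) counts in the kept cells.

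The data were droplet-based single-cell RNA counts from the basolateral amygdala (BLA) of 10 male C57BL/6 mice aged 13 weeks, with 1 library per mouse. CORT mice drank corticosterone at 35 µg/ml for 6 weeks and BCD mice drank water with the cyclodextrin vehicle, and ketamine (Ket, 10 mg/kg, i.p.) or saline (Sal) was injected 24 h before the tissue was taken. Mice 9967, 9968 and 9971 formed the CORT/Ket group, mice 9969 and 9970 the CORT/Sal group, mice 9946, 9949 and 9986 the BCD/Ket group, and mice 9901 and 9947 the BCD/Sal group. All groups shared the strain, the sex and the age. The prefrontal samples of the series were not analysed here.

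Of 28722 barcodes, 8305 passed the limits on detected genes and on the mitochondrial share of UMIs, and a library held 287013 to 3680877 UMIs in its kept barcodes. The library of mouse 9970 stood apart from the others. It kept 97.1% of its barcodes against 16.8% to 31.0% in the others, and 99.7% of the 2350 barcodes of an unnamed cluster came from it. The libraries of mice 9946, 9947, 9967 and 9970, 1 in each group, gave no library sum of astrocytes, microglia or oligodendrocyte precursor cells. At most 10 kept barcode sequences were shared by a pair of libraries. Clusters were named from marker genes, with the PCP genes left out of the clustering, as excitatory neuron-like, inhibitory neuron-like, astrocyte-like, microglia-like, oligodendrocyte precursor cell (OPC)-like, oligodendrocyte-like, endothelial-like, pericyte or mural cell-like (mural) and other immune-like. The suffix is left out below. Pooled over libraries, the excitatory class had Slc17a7 at 1110 CPM (counts per 1000000 UMIs), and the inhibitory class had Gad2 at 1004 CPM. Both genes were among the markers that named the clusters, so they test neither the names nor the dissected region. The inhibitory class was 1 cluster, with Sst at 955 CPM, Vip at 403 CPM, Penk at 1113 CPM, Rgs9 at 216 CPM and Drd1 at 148 CPM. It also carried 24.9% of the summed marker level of excitatory neurons, and types of inhibitory neuron were not separated in it.

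Each member had its own distribution over the cell classes, and members of 1 family often differed. Highest levels are given among the named classes, and unnamed clusters are described at the end. Fzd6, Prickle1 and Vangl1 had their highest mean levels in endothelial or mural cells. Fzd3, Prickle2, Dvl1, Dvl2, Dvl3 and Ankrd6 had theirs in neurons, and Vangl2 had its own in OPCs. Pooled over libraries, Dvl3 was highest in OPCs. No member passed the test in any treatment comparison. Levels are CPM, the UMIs of the gene scaled to all UMIs of the class in a library, for libraries with at least 10 barcodes of the class, and are compared between classes within 1 gene. Genes can be captured unequally, so levels of different genes are not compared.

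**Figure D1:**
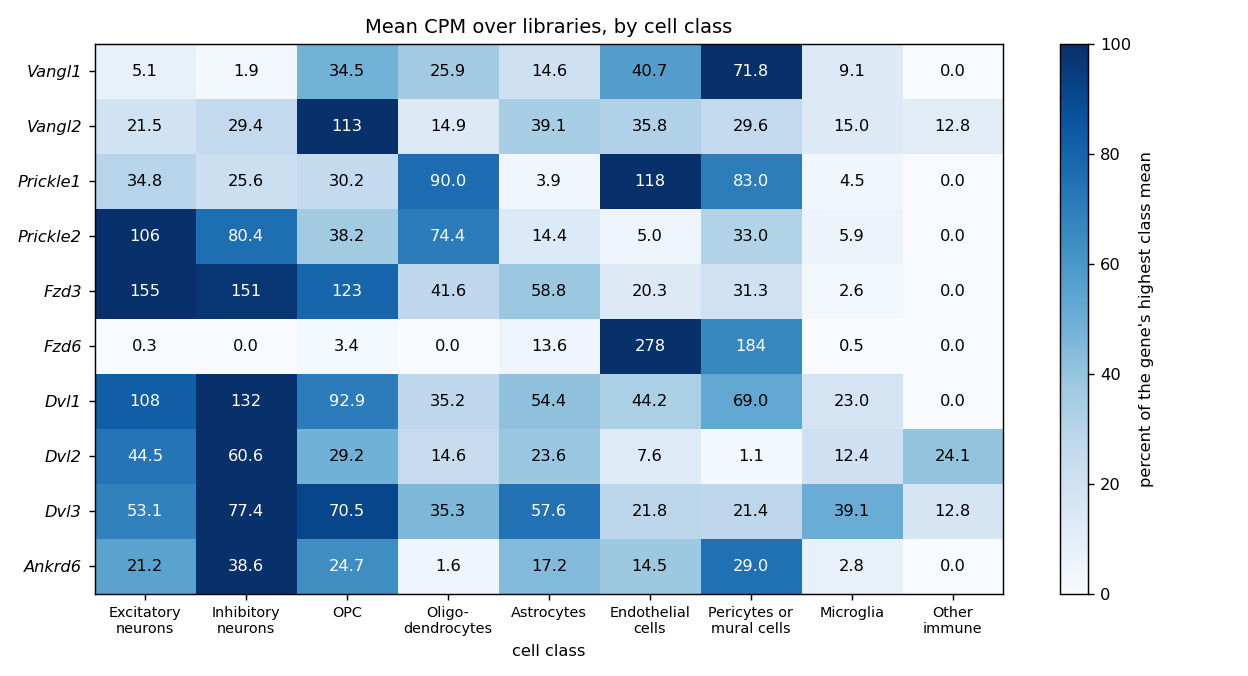
Mean CPM of each of the 10 members (rows) in each cell class (columns), over 4 to 10 libraries per class. Fzd6 reached 278 CPM in endothelial cells and 0 in inhibitory neurons and oligodendrocytes, Vangl2 peaked in OPCs at 113 CPM, and Fzd3 peaked in excitatory neurons at 155 CPM.

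Class differences were tested with edgeR's quasi-likelihood test on counts summed per library and class, with the mouse as a term, and adjusted p-values are Benjamini-Hochberg values over the 7781 genes tested. Log2 differences are given ± SE. Vangl1, Dvl2 and Ankrd6 did not pass the filter on low counts of that fit, so 7 of the 10 members were tested in it, and values for the other 3 come from the same fit without the filter. That fit held 19949 genes. The mice are the replicates. With the mouse as a term, p-values rest on how class differences vary between these mice. That spread is estimated over all classes of the fit, not only the pair compared.

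Among the Frizzled receptors, Fzd6 (ENSMUSG00000022297, chr15:38837879-38869732, plus strand, mm9) was a vascular gene in these cells. Its level in endothelial cells was 278 CPM ± 98.8 (SD, n = 10), with a lowest value of 166, a median of 254 and a highest of 464. Mural cells followed at 184 CPM ± 94.6 (n = 7) and astrocytes at 13.6 CPM ± 4.21 (n = 6). The endothelial range lay wholly above the astrocyte range, which ran from 7.11 to 17.7 CPM. Excitatory neurons held 1 Fzd6 UMI among 2927474, in 1 of 10 libraries. Pooled over libraries, endothelial cells were 669-fold higher than excitatory neurons, with a counting interval of 120 to 26462. Inhibitory neurons and oligodendrocytes had none, so endothelial cells were at least 60.1-fold and at least 77.1-fold higher, against a floor of 3 counts over the class. In OPCs, 3 UMIs gave a ratio of 57.3 (19.5 to 279).

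Both steps down the order from endothelial cells to astrocytes passed the test with the scaling used here (TMM). Fzd6 was higher in endothelial than in mural cells by 0.59 ± 0.19 (adjusted p = 0.0107), in 6 of 7 mice, a call that was lost with RLE factors in place of TMM (0.37 ± 0.19, adjusted p = 0.173). It was higher in mural cells than in astrocytes by 3.22 ± 0.28 (adjusted p = 5.37e-21), in 6 of 6. The order below astrocytes rests on 0 to 3 UMIs per class and cannot be read. Astrocytes had 5.66% of the pooled endothelial level of Fzd6, where the summed level of the 12 endothelial markers in astrocytes was 0.270% of its level in endothelial cells. Excitatory neurons had 0.150% of it, where the marker list was at 0.674%. The mural class carried 33.4% of the endothelial marker level and 70.9% of the Fzd6 level. Marker percentages here and below compare medians over libraries, while those of members compare pooled levels. Transfer of endothelial RNA into mural barcodes was not tested.

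Fzd3 (ENSMUSG00000007989, chr14:65819863-65881300, minus strand, mm9) is a receptor known for its part in axon tract formation. It was higher in neurons than in endothelial and mural cells, the reverse of Fzd6, but microglia had few UMIs of either gene. Excitatory neurons had 155 CPM ± 71.3 (n = 10), from 0 through a median of 166 to 258, and the 0 was the library of mouse 9970. Inhibitory neurons had 151 CPM ± 78.5 (n = 9), from 60.9 to 312. OPCs had 123 CPM ± 49.9 (n = 6), from 77.9 to 204. These 3 classes overlapped widely. The neurons differed from each other by 0.44 ± 0.20 (interval 0.04 to 0.83, adjusted p = 0.137), and inhibitory neurons from OPCs by 0.18 ± 0.28 (−0.37 to 0.72, adjusted p = 0.652). Of the 6 mice with both of these last classes, inhibitory neurons had the higher CPM in 1. Excitatory neurons were above OPCs by 0.61 ± 0.22 (adjusted p = 0.0157), in 6 of 6 mice. OPCs were above astrocytes (58.8 CPM ± 26.7) by 0.63 ± 0.25 (adjusted p = 0.0351), also in 6 of 6 mice.

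The level of Fzd3 was lower outside these classes. Astrocytes were above oligodendrocytes (41.6 CPM ± 41.5, n = 8) by 0.85 ± 0.30 (adjusted p = 0.0127). Oligodendrocytes were above mural cells (31.3 CPM ± 44.7) by 1.29 ± 0.51 (adjusted p = 0.0303), but in only 4 of 7 mice. Mural and endothelial cells (20.3 CPM ± 19.9, n = 10) did not pass the test against each other, with a difference of −0.46 ± 0.51 (−1.47 to 0.55). Endothelial cells were below excitatory neurons by 2.92 ± 0.23 on the log2 scale (adjusted p = 2.88e-25), and were higher in 0 of 10 mice. Microglia had 3 Fzd3 UMIs, and excitatory neurons were 105-fold higher (35.6 to 509). Endothelial cells kept 10.5% of the pooled excitatory level of Fzd3, while the excitatory marker list stood there at 2.20% of its level in excitatory neurons. Of other classes with Fzd3, the astrocyte list stood there at 3.76% of its own level, the oligodendrocyte list at 0.990%, the inhibitory list at 0.601% and the OPC list at 0.319%. Transfer of RNA from these classes was not tested.

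The Van Gogh-like proteins recruit Prickle to the membrane and are needed for neural tube closure in mice. Vangl2 (ENSMUSG00000026556, chr1:173931091-173958575, minus strand, mm9) was highest in OPCs, at 102 CPM in BCD/Sal mouse 9901, at 128 and 120 CPM in BCD/Ket mice 9949 and 9986, at 73.2 CPM in CORT/Sal mouse 9969, and at 161 and 94.8 CPM in CORT/Ket mice 9968 and 9971. All 6 OPC values lay above all 6 astrocyte values, which ran from 27.2 to 51.6 CPM. OPCs were above astrocytes by 1.11 ± 0.27 (adjusted p = 0.000313) and above oligodendrocytes by 2.31 ± 0.38 (adjusted p = 5.72e-08), the mature cells that OPCs give rise to. They also passed the test against excitatory neurons (2.33 ± 0.31 higher), inhibitory neurons (2.20 ± 0.43), microglia (2.54 ± 0.35), endothelial cells (1.60 ± 0.29) and mural cells (1.71 ± 0.37), and were higher in 6 of 6 mice in each of these 7 pairs. The share of all genes that passed was 40.7% against astrocytes, 49.4% against oligodendrocytes, 50.4% against excitatory neurons, 40.1% against inhibitory neurons, 54.9% against microglia, 61.1% against endothelial cells and 52.6% against mural cells.

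Below OPCs the levels of Vangl2 were close to each other. Mean levels fell from 39.1 CPM in astrocytes through endothelial cells (35.8), mural cells (29.6), inhibitory neurons (29.4), excitatory neurons (21.5) and microglia (15.0) to oligodendrocytes (14.9). No neighbouring pair in that order passed the test, and each of these differences in CPM was smaller than its SD over mice. With RLE factors the first pair passed, astrocytes being above endothelial cells by 1.07 ± 0.28 (adjusted p = 0.000366), against 0.49 ± 0.27 (adjusted p = 0.107) with TMM. Astrocytes were above excitatory neurons by 1.22 ± 0.30 (adjusted p = 0.000176), in 6 of 6 mice. The excitatory values rested on 0 to 19 UMIs per library.

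Vangl1 (ENSMUSG00000027860, chr3:101960624-102008616, minus strand, mm9) was highest in mural cells, at 71.8 CPM ± 49.1 (n = 7), from 0 to 168. Endothelial cells had 40.7 CPM ± 30.5 (n = 10), OPCs 34.5 CPM ± 13.4 (n = 6) and oligodendrocytes 25.9 CPM ± 25.7 (n = 8). It was low in excitatory neurons, at 5.10 CPM ± 6.34 from 18 UMIs, and in inhibitory neurons, with 3 UMIs. Astrocytes had 14.6 CPM ± 4.75 and microglia 9.08 CPM ± 7.42. In the fit without a filter, Vangl1 was lower in astrocytes than in endothelial cells by 1.34 ± 0.29 (adjusted p = 1.46e-05) and lower in excitatory neurons than in astrocytes by 1.53 ± 0.40 (adjusted p = 0.000599). Between endothelial and mural cells it differed by −0.58 ± 0.28 (−1.13 to −0.04, adjusted p = 0.199). In that fit 36.6% of all genes passed between astrocytes and endothelial cells, 38.3% between excitatory neurons and astrocytes, and 12.1% between endothelial and mural cells. The annotation holds an overlapping transcript on the other strand of Vangl1 (Gm16160).

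Prickle proteins are cytoplasmic LIM domain proteins that bind Vangl. Prickle2 (ENSMUSG00000030020, chr6:92320886-92656139, minus strand, mm9) was highest in excitatory neurons, at 106 CPM ± 45.3 (n = 10), from 0 in mouse 9970 through a median of 112 to 160. Inhibitory neurons had 80.4 CPM ± 39.6 (n = 9), from 27.96 to 152. Oligodendrocytes had 74.4 CPM ± 15.0 (n = 8), from 50.1 to 93.2. The 3 classes overlapped. Excitatory neurons were above inhibitory neurons by 0.77 ± 0.24 (adjusted p = 0.0130), in 8 of 9 mice, a call that was lost with another scaling (given with the scaling below) and without mouse 9946. The excitatory clusters differed in Prickle2, as given with the clusters below. Inhibitory neurons and oligodendrocytes differed by −0.41 ± 0.29 (−0.99 to 0.18, adjusted p = 0.232). Oligodendrocytes were above OPCs (38.2 CPM ± 19.5) by 1.18 ± 0.34 (adjusted p = 0.00197), in 6 of 6 mice, and this call was lost with RLE factors (−0.76 ± 0.34 for OPCs against oligodendrocytes, adjusted p = 0.0516). OPCs and mural cells (33.0 CPM ± 24.9) differed by 0.02 ± 0.43 (−0.82 to 0.86).

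Prickle2 was low in the remaining classes, at 14.4 CPM ± 7.74 in astrocytes, 5.86 CPM ± 8.35 in microglia and 4.96 CPM ± 5.33 in endothelial cells. The highest endothelial library had 14.7 CPM, below the lowest excitatory library other than that of mouse 9970 (84.3 CPM). Endothelial cells were below excitatory neurons by 3.94 ± 0.30 on the log2 scale (adjusted p = 5.66e-26). Against oligodendrocytes the difference was −3.57 ± 0.36 (adjusted p = 4.22e-17). Astrocytes passed the test against endothelial cells, 1.44 ± 0.43 higher (adjusted p = 0.00230).

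Prickle1 (ENSMUSG00000036158, chr15:93329545-93426322, minus strand, mm9) was highest in endothelial cells, where Prickle2 was near its lowest levels, and was itself low in microglia, where Prickle2 was also low. Endothelial cells had 118 CPM ± 45.0 (n = 10), with a median of 122. The lowest value was a 0 from the 3411 endothelial UMIs of mouse 9970, and the other 9 libraries ran from 108 to 165 CPM. Oligodendrocytes had 90.02 CPM ± 40.4 (n = 8), from 48.0 to 181, and mural cells had 83.0 CPM ± 30.6 (n = 7), from 38.4 to 130. Endothelial cells were above oligodendrocytes by 0.48 ± 0.20 (adjusted p = 0.0382), in 7 of 8 mice, and above mural cells by 0.82 ± 0.24 (adjusted p = 0.00424), in 6 of 7. Oligodendrocytes and mural cells differed by 0.34 ± 0.28 (−0.21 to 0.88, adjusted p = 0.327).

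Excitatory neurons (34.8 CPM ± 23.9), OPCs (30.2 CPM ± 25.4) and inhibitory neurons (25.6 CPM ± 20.3) formed a middle group for Prickle1, and neither neighbouring pair of them passed the test. The place of OPCs in it depends on a small OPC cluster of 12 barcodes, which held 13 Prickle1 UMIs (181 CPM, interval 96.2 to 309). The main OPC cluster, of 395 barcodes, held 8 (11.6 CPM, 5.03 to 22.9). Mural cells were above excitatory neurons by 1.19 ± 0.29 (adjusted p = 0.000142). Microglia (4.52 CPM ± 2.76) and astrocytes (3.94 CPM ± 1.06) were lowest. Astrocytes were below endothelial cells by 4.60 ± 0.31 on the log2 scale (adjusted p = 1.92e-30), and their difference from oligodendrocytes was −4.11 ± 0.37 (adjusted p = 1.88e-20), lower in 6 of 6 mice each. All 6 astrocyte libraries lay between 2.80 and 5.90 CPM, each from 1 or 2 UMIs.

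Of the Dishevelled genes, Dvl1 and Dvl3 were spread more evenly over the larger classes. Dvl1 (ENSMUSG00000029071, chr4:155221511-155233412, plus strand, mm9) had a mean of 132 CPM ± 89.0 (n = 9) in inhibitory neurons, from 21.3 to 300, and of 108 CPM ± 26.4 (n = 10) in excitatory neurons, from 62.9 to 143. Pooled over libraries the order was the other way round, with 86.2 CPM in inhibitory and 117 CPM in excitatory neurons, and the difference did not pass the test (0.33 ± 0.23 higher in excitatory neurons, −0.12 to 0.79, with a sign that turned under the other scaling given below). OPCs followed at 92.9 CPM ± 58.1. Excitatory neurons were above OPCs by 0.76 ± 0.25 (adjusted p = 0.00560) and above astrocytes (54.4 CPM ± 9.002) by 0.91 ± 0.20 (adjusted p = 2.57e-05). Microglia had the lowest mean of the larger classes, 23.0 CPM ± 9.41, and were below astrocytes by 1.28 ± 0.28 (adjusted p = 3.3e-05), in 6 of 6 mice. The mean of mural cells, 69.0 CPM ± 87.5, was raised by 2 UMIs in the smallest library, and the pooled level was 36.9 CPM. Endothelial cells had 44.2 CPM ± 28.3 and oligodendrocytes 35.2 CPM ± 17.3.

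Dvl3 (ENSMUSG00000003233, chr16:20517055-20532593, plus strand, mm9) ranged from 77.4 CPM ± 34.7 in inhibitory neurons through OPCs (70.5 ± 16.8), astrocytes (57.6 ± 22.3), excitatory neurons (53.1 ± 37.1), microglia (39.1 ± 11.8) and oligodendrocytes (35.3 ± 21.9) to endothelial (21.8 ± 14.9) and mural cells (21.4 ± 13.8). Pooled over libraries OPCs were highest, at 70.4 CPM against 64.7 CPM in inhibitory neurons. Inhibitory neurons differed from OPCs by 0.20 ± 0.31 (−0.42 to 0.82, adjusted p = 0.685). Of the 7 neighbouring pairs, astrocytes against excitatory neurons (0.50 ± 0.21, adjusted p = 0.0340) and oligodendrocytes against endothelial cells (1.08 ± 0.32, adjusted p = 0.00242) passed the test. The first of these was higher in 4 of 6 mice and kept its call in 11 of 22 alternatives. Astrocytes were above endothelial cells by 1.62 ± 0.25 (adjusted p = 2.44e-09), in 6 of 6 mice.

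Dvl2 (ENSMUSG00000020888, chr11:69814097-69825803, plus strand, mm9) had 60.6 CPM ± 59.1 in inhibitory and 44.5 CPM ± 18.6 in excitatory neurons, and 7.57 CPM ± 8.57 in endothelial cells. OPCs had 29.2 CPM ± 16.1, astrocytes 23.6 CPM ± 6.76, oligodendrocytes 14.6 CPM ± 11.7 and microglia 12.4 CPM ± 11.9. Mural cells had 1 UMI in all. Without the filter, Dvl2 was higher in excitatory neurons than in astrocytes by 0.81 ± 0.26 (adjusted p = 0.00725) and higher in astrocytes than in endothelial cells by 0.92 ± 0.33 (adjusted p = 0.0160). Against the 1 mural UMI, endothelial cells were higher by 2.94 ± 0.84 (adjusted p = 0.00577), where 12.1% of all genes passed. Ankrd6 (ENSMUSG00000040183, chr4:32891010-33037816, minus strand, mm9) had 38.6 CPM ± 32.7 in inhibitory neurons, 29.0 CPM ± 47.4 in mural cells (pooled 14.2 CPM), 24.7 CPM ± 15.1 in OPCs, 21.2 CPM ± 11.01 in excitatory neurons, 17.2 CPM ± 6.07 in astrocytes and 14.5 CPM ± 10.7 in endothelial cells. In microglia it had 2.80 CPM ± 4.32, below astrocytes by 2.51 ± 0.55 (adjusted p = 2.37e-05), and oligodendrocytes had 1 UMI against 19 in OPCs. Other immune cells, with 119692 UMIs over 4 libraries, held 2 UMIs of Dvl2, 1 of Dvl3 and 1 of Vangl2, and none of the other 7 members. Between microglia and astrocytes 33.6% of all genes passed in this fit. The annotation holds genes on the other strand within Dvl1 (Tas1r3), Dvl2 (Acadvl), Dvl3 (Gm16618) and Ankrd6 (Gm11941). How strand was used in the counting is not given in the sources used here.

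**Figure D2:**
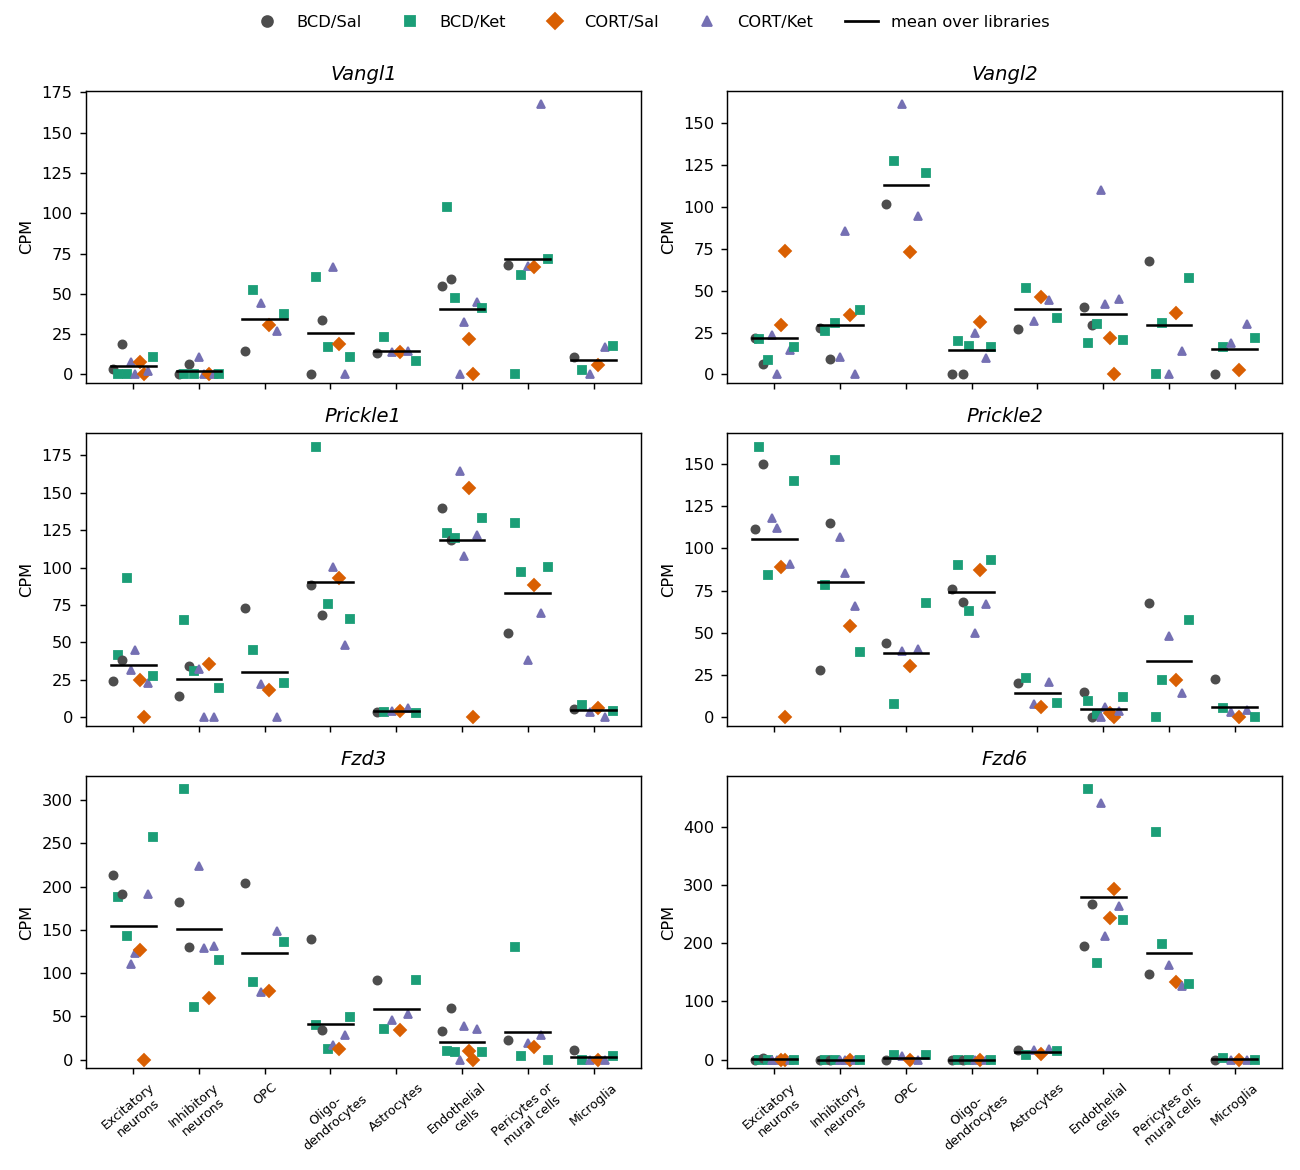
CPM of Vangl1, Vangl2, Prickle1, Prickle2, Fzd3 and Fzd6 in each library (points, marked by treatment group) in 8 cell classes, with lines at the means. The Fzd6 points of endothelial cells lie between 166 and 464 CPM while those of excitatory neurons lie between 0 and 3.20 CPM, and the Vangl2 points of OPCs lie between 73.2 and 161 CPM.

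The number of members called is given for each pair of classes beside the share of all genes called. Between excitatory neurons and astrocytes 7 of the 7 tested members passed, 4 higher and 3 lower in neurons, where 64.3% of all tested genes passed (33.7% higher, 30.6% lower). Between astrocytes and endothelial cells 6 passed (63.9% of all genes, 35.4% higher and 28.5% lower in astrocytes), with Fzd3, Dvl1, Dvl3 and Prickle2 higher and Fzd6 and Prickle1 lower in astrocytes. The call of Dvl1 was kept in 9 of 22 alternatives. Between OPCs and oligodendrocytes 5 passed (49.4% of all genes, 29.9% higher and 19.5% lower in OPCs), with Vangl2, Fzd3 and Dvl1 higher and Prickle1 and Prickle2 lower in OPCs. The Prickle1 difference was −1.84 ± 0.34. Between microglia and astrocytes 6 passed, all lower in microglia (57.9% of all genes in either direction, 32.3% lower), and of these Fzd3 and Fzd6 rested on 3 UMIs and 1 UMI in microglia. Between endothelial and mural cells Fzd6 and Prickle1 were higher and Prickle2 lower in endothelial cells, 3 calls against 23.4% of all genes (12.2% higher, 11.3% lower). Prickle2 alone passed between excitatory and inhibitory neurons, where 14.5% of all genes passed (11.2% higher and 3.25% lower in excitatory neurons). Between endothelial cells and excitatory neurons all 7 passed, against 73.9%. For the other pairs of classes whose tests are given above, the share of all genes called was 52.1% for astrocytes against oligodendrocytes, 53.7% for astrocytes against mural cells, 53.8% for endothelial cells against oligodendrocytes, 64.7% for excitatory neurons against mural cells, 47.5% for oligodendrocytes against mural cells, 60.1% for inhibitory neurons against oligodendrocytes, 60.2% for inhibitory neurons against mural cells, 70.4% for excitatory neurons against microglia and 52.2% for microglia against oligodendrocytes. Nothing particular to the members is read from these counts.

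Some of these counts depend on the scaling. Other scaling factors (RLE in place of TMM) moved the median log2 difference of all genes by −0.32 between excitatory and inhibitory neurons, and the share of calls that were higher in excitatory neurons went from 77.6% to 33.2%. Prickle2 was then not called (0.48 ± 0.25, adjusted p = 0.211), and Dvl3 was called lower in excitatory neurons (−1.15 ± 0.28, adjusted p = 0.00169). The shift was 0.44 for OPCs against oligodendrocytes (60.5% to 77.6% higher), 0.55 for astrocytes against endothelial cells (55.4% to 73.7%), −0.16 for endothelial against mural cells (51.9% to 39.3%), −0.46 for microglia against astrocytes (44.2% to 27.2%) and 0.11 for excitatory neurons against astrocytes (52.4% to 57.2%). Over these 6 pairs RLE lost 4 calls of members and gained 4. The lost calls were Prickle2 between the neurons and between OPCs and oligodendrocytes, Fzd6 between endothelial and mural cells, and Dvl3 between excitatory neurons and astrocytes (adjusted p = 0.149). The gained calls were Dvl3 between the neurons and between OPCs and oligodendrocytes (0.99 ± 0.32 higher in OPCs), Fzd6 between OPCs and oligodendrocytes, which had no Fzd6 UMI, and Vangl2 between astrocytes and endothelial cells. In these 6 pairs no called difference of a member changed sign. Of the differences not called, 3 did, namely Dvl1 between excitatory and inhibitory neurons (−0.10), Vangl2 between endothelial and mural cells and Prickle1 between microglia and astrocytes, and differences smaller than these shifts depend on the scaling.

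Shares within a family do not depend on the scaling, and they showed which paralog made up the counts in each class. Prickle2 gave 78.9% of the 422 Prickle UMIs of excitatory neurons (exact binomial 95% interval 74.7% to 82.7%) and 74.7% of those of inhibitory neurons (64.8% to 83.1%). In endothelial cells it gave 4.39% of 319 (2.42% to 7.25%). Among libraries with a Prickle UMI, no endothelial library exceeded 9.52% and no excitatory library was under 47.6%. Oligodendrocytes held both genes, with 46.1% Prickle2 (38.3% to 54.0%), and OPCs had 57.1% (42.2% to 71.2%). The OPC share includes 13 Prickle1 UMIs from the cluster of 12 barcodes, which had no Prickle2 UMI. The main OPC cluster held 8 Prickle1 and 28 Prickle2 UMIs. Mural cells lay between endothelial cells and the glia with 24 of 80 UMIs (20.3% to 41.3%). The intervals cover counting error only.

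Fzd3 gave 99.8% of the Fzd3 and Fzd6 UMIs in excitatory neurons and all 123 in inhibitory neurons (interval from 97.0%). It gave 96.5% in OPCs and 80.7% (74.0% to 86.3%) in astrocytes. In endothelial cells it gave 7.98% of 589 (5.92% to 10.5%) and in mural cells 8.06% of 124 (3.94% to 14.3%). Vangl2 gave 75.9% of the Vangl UMIs in OPCs (67.0% to 83.3%) and 72.5% in astrocytes (64.4% to 79.7%), but 42.7% in endothelial (35.3% to 50.3%) and 30.3% in mural cells (20.2% to 41.9%). Oligodendrocytes, which arise from OPCs, had 42.9% of 42 UMIs (27.7% to 59.0%). That interval lies below the OPC interval but covers counting error only. Over 7 libraries the oligodendrocyte share ran from 0% to 100%, which encloses the OPC range of 70.6% to 87.5%.

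The Dishevelled shares moved less. Dvl1 gave 56.0% of the 611 Dishevelled UMIs in excitatory neurons (51.9% to 60.0%), and Dvl3 gave 20.9% (17.8% to 24.4%). In astrocytes each gave 41.1%. In microglia Dvl3 gave 51.2% of 123 (42.0% to 60.3%) and Dvl1 30.9% (22.9% to 39.9%). Dvl2 gave between 14.6% and 23.1% in every class other than mural and other immune cells, where it had 1 and 2 UMIs.

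**Figure D3:**
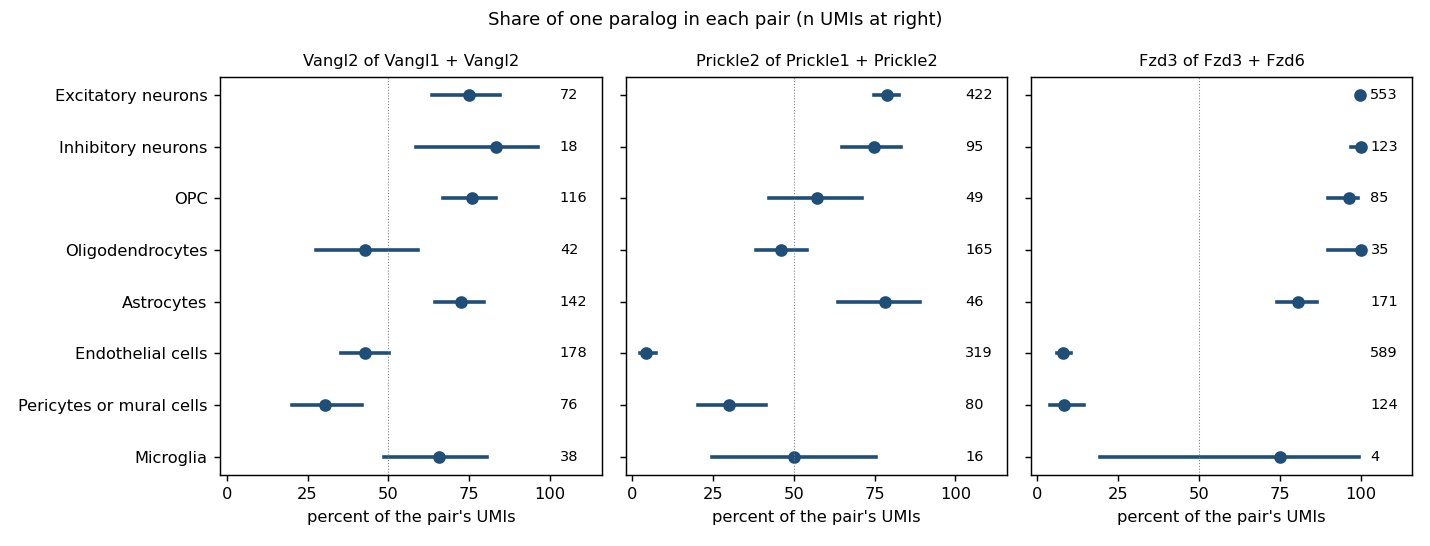
Share of Vangl2, Prickle2 and Fzd3 in the UMIs of their pair (percent, points, pooled over libraries) with exact binomial 95% intervals (lines) by cell class, and the number of UMIs at the right of each panel. Prickle2 falls from 78.9% in excitatory neurons to 4.39% in endothelial cells, and Fzd3 from 99.8% to 7.98%.

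Celsr2, a cadherin of the same core complex, had 251 CPM ± 51.3 in excitatory neurons and 107 CPM ± 10.3 in astrocytes, and Celsr3 had 112 CPM ± 47.8 in excitatory neurons and 3 UMIs in all endothelial cells. Celsr1 had 33.3 CPM ± 6.12 in astrocytes and no UMI in endothelial cells.

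Of 55 further genes of the pathway (the Celsr cadherins, Wnt ligands, other Frizzled genes and co-receptors, binding partners, effectors and the Fat and Dachsous system), 30 were tested between classes. Between excitatory neurons and astrocytes 9 were higher and 12 lower in neurons, where 33.7% of all genes were called higher and 30.6% lower. The largest differences were those of the Frizzled genes Fzd2 (−7.18 ± 0.33) and Fzd9 (−6.48 ± 0.55), of Daam2 (−4.91 ± 0.29), a formin that acts downstream of Dishevelled, and of Fjx1 (−4.02 ± 0.20), a homologue of the Four-jointed kinase of the Fat and Dachsous system, all lower in neurons, and of Celsr3 (6.86 ± 0.44). Between astrocytes and endothelial cells 13 were higher and 10 lower in astrocytes (35.4% and 28.5% of all genes), with Fzd2 (7.69 ± 0.34) and Fzd9 (5.88 ± 0.50) again higher in astrocytes, where Fzd6 was lower. For excitatory against inhibitory neurons 8 were higher and 1 lower (11.2% and 3.25% of all genes), and the direction of most calls over all genes turned with the scaling in this pair, as given above. Counts for the other pairs were 10 higher and 8 lower for OPCs against oligodendrocytes (29.9% and 19.5% of all genes), 3 and 10 for endothelial against mural cells (12.2% and 11.3%), and 7 and 15 for microglia against astrocytes (25.6% and 32.3%).

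Over 66 library sums and 11045 genes with a mean of at least 10 CPM, the genes whose log2(CPM + 10) was most like that of a member were found by Pearson's r. For Fzd6 these were Nos3, the endothelial nitric oxide synthase (0.966), Foxc1 (0.965) and Cyyr1 (0.964). For Fzd3 they were Akap6 (0.883), Cxxc4 (0.843) and Pcdh7 (0.838), and for Prickle2 they were Abca8b (0.846), the synaptic vesicle gene Sv2a (0.835) and Ptprd (0.831). Prickle1 was most like Dock9 (0.816), and Dvl1 was most like Map3k12 (0.817). Vangl1 was most like Nkd1 (0.719), which encodes an inhibitor of Dishevelled. For Vangl2 the highest value was 0.641, with Hip1r, and for Dvl2, Dvl3 and Ankrd6 it was 0.723 (Grik2), 0.740 (Sec24a) and 0.732 (2610044O15Rik8). The sums of 1 mouse share a library and the values depend on depth, so they are descriptions.

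Excitatory neurons held 3 clusters, and their makeup differed between mice. The first (800 barcodes) had Igfn1, Slit3 and Cpne7 as leading genes, and the second (230 barcodes) had Cartpt, Slc17a6 and Cdhr1. Their barcodes had medians of 1246 and 4273.5 UMIs. The first gave 0.669% to 71.5% of the excitatory UMIs of a mouse. Pooled over libraries, Fzd3 was at 133 CPM in the first (interval 115 to 154) and 249 CPM in the second (224 to 276), and Prickle2 at 91.8 CPM (76.7 to 109) and 135 CPM (117 to 156). Dvl1 went the other way, with 171 CPM (150 to 194) and 67.5 CPM (54.7 to 82.5), as did Dvl2, with 78.3 CPM (64.4 to 94.4) and 21.1 CPM (14.2 to 30.1). In the 5 mice that gave a sum of each, Fzd3 was higher in the second cluster in 5 of 5 and Prickle2 in 4, while Dvl1 and Dvl2 were lower there in 4 of 5 each. These cluster values are descriptions, with no test. The third cluster, of 104 barcodes, held 12 Prickle2 and 11 Fzd3 UMIs.

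The treatment comparisons ask whether corticosterone changes the members and whether ketamine changes them with or without corticosterone. In excitatory neurons neither Prickle2 nor Fzd3 passed the test in a treatment comparison, and their CORT/Sal levels rest mainly on mouse 9969. In this class the sums of the inhibitory and endothelial markers lay apart between the CORT/Sal and BCD/Sal mice, while those of other lists overlapped. The 17 inhibitory markers summed to 555 to 808 CPM in excitatory neurons of the CORT/Sal mice, to 453 to 464 CPM in the BCD/Sal mice, to 279 to 413 CPM in the BCD/Ket mice and to 165 to 533 CPM in the CORT/Ket mice. The 12 endothelial markers summed to 220 to 317, 54.4 to 122, 167 to 439 and 15.7 to 336 CPM in the same order. The 808 and 220 CPM came from mouse 9970, with 13614 UMIs in this class. Between CORT/Sal and BCD/Sal the sums overlapped for astrocyte markers (523 to 1175 against 467 to 978 CPM) and OPC markers (220 to 496 against 333 to 658 CPM). They also overlapped for oligodendrocyte, microglia and mural markers. The part of RNA from other classes in the values of the members was not tested. Prickle2 had 112 and 150 CPM in the BCD/Sal mice 9901 and 9947. It had 160, 84.3 and 140 CPM in the BCD/Ket mice 9946, 9949 and 9986. In the CORT/Sal mice it had 89.3 CPM in 9969 and 0 in 9970, and in the CORT/Ket mice 9967, 9968 and 9971 it had 118, 112 and 90.6 CPM. The 0 came from 32 barcodes with 13614 UMIs, which allow up to 220 CPM (3 counts), so it says little, and the CORT/Sal level rests on mouse 9969. The lowest CORT/Ket value was 90.6 CPM, and the lowest value without corticosterone was the 84.3 CPM of mouse 9949. With mouse 9969 alone behind the CORT/Sal level, no order of the groups is read from these values.

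The log2 difference of Prickle2 was −0.85 ± 0.58 between CORT/Sal and BCD/Sal (interval −2.03 to 0.32, adjusted p = 0.996). For CORT/Ket against CORT/Sal it was 0.50 ± 0.57 (−0.66 to 1.65, adjusted p = 0.9997). Without mouse 9970 they were −0.61 ± 0.59 and 0.22 ± 0.57, and there the CORT/Sal group is 1 mouse, assumed to vary like the others. Between BCD/Ket and BCD/Sal the difference was −0.05 ± 0.47 (−0.99 to 0.90). The ketamine effects with and without corticosterone differed by 0.54 ± 0.73 (−0.94 to 2.03). All of these intervals hold 0. Those of the comparisons with CORT/Sal and of the difference of the ketamine effects also hold changes of over 1 on the log2 scale. With corticosterone averaged over both injections, Prickle2 differed by −0.52 ± 0.34 (−1.21 to 0.18).

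Fzd3 had 213 and 192 CPM in excitatory neurons of the BCD/Sal mice, 188, 143 and 258 CPM in the BCD/Ket mice, 126 CPM and 0 in the CORT/Sal mice and 110, 123 and 191 CPM in the CORT/Ket mice. Values with and without corticosterone overlapped. The difference between CORT/Sal and BCD/Sal was −1.04 ± 0.56 (−2.19 to 0.10, adjusted p = 0.996), and −0.75 ± 0.58 without mouse 9970. Counting the large cluster of that mouse as excitatory neurons, an alternative chosen after seeing the data, gave −1.10 ± 0.45 (adjusted p = 0.365) for Fzd3 and −0.51 ± 0.43 for Prickle2. Averaged over both injections, the corticosterone difference was −0.66 ± 0.33 (interval −1.34 to 0.02, unadjusted p = 0.0562, adjusted p = 0.9996). The cluster with the higher Fzd3 level gave 27.3% and 98.3% of the excitatory UMIs of the BCD/Sal mice and 63.8% of those of CORT/Sal mouse 9969, and mouse 9970 had no barcode in it. Its part in the Fzd3 values was not tested.

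The other members of excitatory neurons gave no call either, where 0% of the 6740 genes tested in that class passed in each comparison other than ketamine averaged over both waters (0.0148%). Dvl1 ran from 62.9 to 143 CPM over the 10 mice and differed by −0.17 ± 0.54 between CORT/Sal and BCD/Sal. Dvl2 had 69.0 and 22.4 CPM in the BCD/Sal mice, 27.9, 42.2 and 32.9 CPM in the BCD/Ket mice, 27.3 and 73.5 CPM in the CORT/Sal mice and 39.3, 44.7 and 65.9 CPM in the CORT/Ket mice. Its ketamine effects differed by 1.47 ± 0.87 (−0.30 to 3.23, unadjusted p = 0.101), and the 73.5 CPM is 1 UMI of mouse 9970. Over the 6 members tested in excitatory neurons the median log2 difference was −0.64 between CORT/Sal and BCD/Sal, where the median of all 6740 genes was −0.13, and 0.45 against 0.10 between CORT/Ket and CORT/Sal. Over the same 6 members the medians were −0.47 and 0.22 without mouse 9970 (−0.05 and 0.01 for all 8869 genes tested), and −0.34 and 0.10 with its large cluster counted as excitatory neurons (−0.02 and −0.01 for all 8200 genes). Both comparisons use the same CORT/Sal libraries. In the main fit the medians were −0.0064 between BCD/Ket and BCD/Sal (−0.0058 for all genes) and −0.19 between CORT/Ket and BCD/Ket (−0.0011 for all genes). The 6 members are not replicates, so these medians are descriptions, and nothing is read from them about the members as a set.

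**Figure D4:**
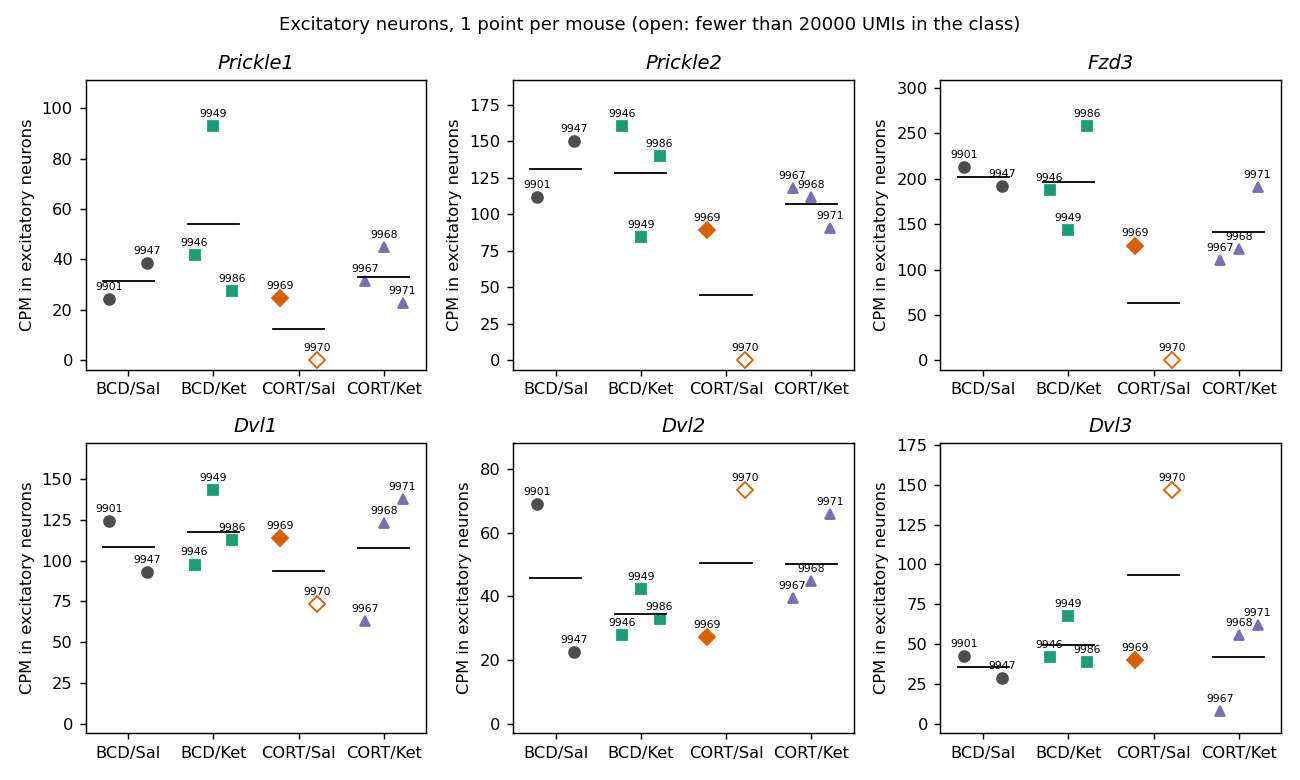
CPM of Prickle1, Prickle2, Fzd3, Dvl1, Dvl2 and Dvl3 in excitatory neurons of each mouse (points) by treatment group, with lines at the group means and mouse 9970, which had 13614 UMIs in this class, drawn open. Prickle2 is at 89.3 CPM in the other CORT/Sal mouse and between 90.6 and 118 CPM in the CORT/Ket mice, and no order of the groups is read from these values.

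The lowest unadjusted p of any member was that of Fzd3 in endothelial cells. Its levels were 33.1 and 59.3 CPM in the BCD/Sal mice, 9.47, 8.81 and 8.87 CPM in the BCD/Ket mice, 9.72 CPM and 0 in the CORT/Sal mice and 0, 38.8 and 34.8 CPM in the CORT/Ket mice. The gene and class were picked by that lowest p and the groups are small, so no separation between groups is read from these values. The ketamine effects differed by 3.74 ± 1.201 (1.39 to 6.10, unadjusted p = 0.00183, adjusted p = 0.485, and 0.204 to 0.99998 over 22 alternatives), where 0% of the 6365 genes tested in that class passed. These values rest on 0 to 13 UMIs per library. The 17 inhibitory markers summed to 84.5 to 88.9 CPM in endothelial cells of the BCD/Sal mice, to 19.4 to 35.5 CPM in the BCD/Ket mice, to 0 to 21.9 CPM in the CORT/Sal mice and to 14.9 to 55.0 CPM in the CORT/Ket mice. The 16 excitatory markers summed to 178 to 441, 142 to 183, 143 to 586 and 55.0 to 365 CPM in the same order. The 11 OPC markers summed to 84.5 to 88.9, 24.7 to 47.3, 0 to 43.7 and 55.0 to 181 CPM in that order. The astrocyte sums of the BCD/Ket mice (1153 to 1448 CPM) lay within those of the BCD/Sal mice (919 to 2055 CPM). Mouse 9970 had 586 CPM of excitatory markers among 3411 endothelial UMIs, and mouse 9967 had 55.0 CPM of inhibitory markers among 18197. Both had Fzd3 at 0, and at these depths neither the marker sums nor the 0 say much. The part of RNA from other classes in the result was not tested.

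Of 123 tests of a member in a class and a treatment comparison, none was called by edgeR, and 6 had an unadjusted p below 0.05 (4.88%, against 2.82% of all 140758 gene tests). All genes gave 54 calls. The share of all genes called was 0.0458% for CORT/Sal against BCD/Sal, 0% for CORT/Ket against CORT/Sal, 0.00514% for BCD/Ket against BCD/Sal, 0.0626% for CORT/Ket against BCD/Ket, 0% for the difference of the ketamine effects, 0.0103% for ketamine averaged over both waters and 0.0926% for corticosterone averaged over both injections. Within endothelial cells it was 0.0786% for CORT/Ket against BCD/Ket, 0.0157% for averaged ketamine and 0.189% for averaged corticosterone. For CORT/Ket against BCD/Ket it was 0.423% in OPCs, 0.0286% in oligodendrocytes and 0% in astrocytes, microglia, mural cells and inhibitory neurons. In oligodendrocytes it was 0.0286% for BCD/Ket against BCD/Sal and 0.172% for averaged corticosterone. DESeq2 called no member in these comparisons either. Of the 6, 4 were Fzd3 in endothelial cells. The other 2 were Vangl1 in endothelial cells, lower with corticosterone by 0.81 ± 0.39 on the log2 scale (adjusted p = 0.996), and Dvl2 in inhibitory neurons, higher with ketamine by 2.31 ± 0.94 (adjusted p = 0.999) from 0 to 7 UMIs per library.

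Comparisons of CORT/Sal could be tested in excitatory neurons and endothelial cells only, where both groups had at least 2 libraries. Fzd6 in endothelial cells did not pass the test (0.0943% and 0% of the genes of that class passed in these 2 comparisons), with a difference of 0.11 ± 0.57 between CORT/Sal and BCD/Sal (−1.01 to 1.23) and of 0.38 ± 0.49 between BCD/Ket and BCD/Sal (−0.57 to 1.34). Vangl2 in OPCs differed by 0.05 ± 0.54 between CORT/Ket and BCD/Ket (−1.01 to 1.11). Prickle2 in oligodendrocytes differed by 0.13 ± 0.67 between BCD/Ket and BCD/Sal (−1.17 to 1.44). In inhibitory neurons Prickle2 was under the filter and was not tested. Its values there were 27.96 and 115 CPM in the BCD/Sal mice, 78.1, 152 and 38.5 CPM in the BCD/Ket mice, 53.7 CPM in the 1 CORT/Sal mouse and 107, 85.6 and 65.6 CPM in the CORT/Ket mice, and the CORT values lay within the range of the BCD values. None of the 14 to 34 further pathway genes tested per class was called in a treatment comparison.

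**Figure D5:**
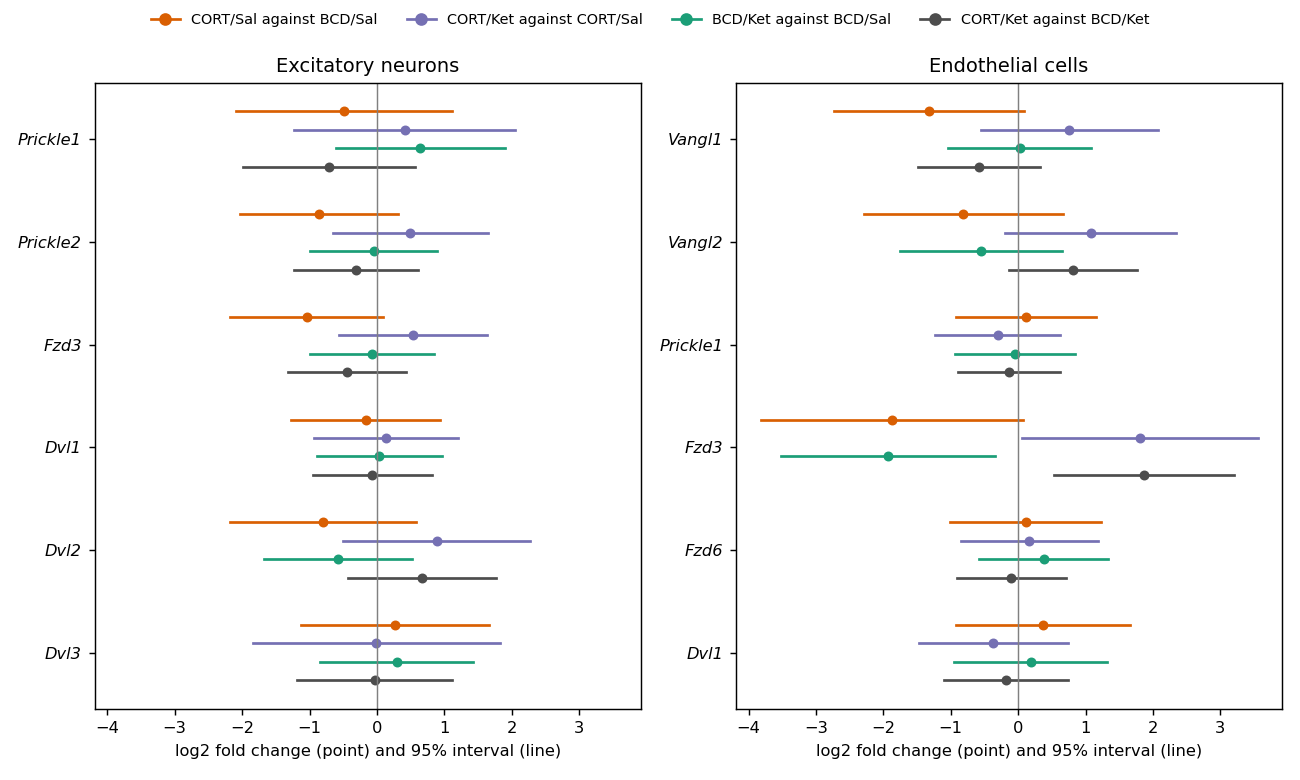
Log2 differences (points) with 95% intervals (lines) of the members tested in excitatory neurons and endothelial cells, for 4 treatment comparisons. Fzd3 in endothelial cells is at −1.94 between BCD/Ket and BCD/Sal, and no adjusted p was below 0.05.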

How the data were processed

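Single cells of the BLA of 10 mice were captured with the 10x Chromium platform. The matrices deposited by the authors held filtered barcodes with raw counts of UMIs (Cell Ranger 3.0.2 in the headers), and their methods name mm9. No count was normalised before deposit. Barcodes with at least 200 genes and at most 12.5% mitochondrial UMIs were kept. The mitochondrial limit is the one the study used, and 200 genes was set here. Clustering used 2000 variable genes, with 65 polarity genes left out, 30 principal components, 20 neighbours and Leiden resolution 0.8 (scanpy 1.11.5, leidenalg 0.10.2). A cluster was named where at least 3 fixed markers of a class, and more than of any other, stood among its 100 leading genes. Clusters with over 90% of their barcodes from 1 library were left unnamed whatever their markers, which applied to the large cluster of mouse 9970. A name was also withheld where the 10 first genes held more markers of another class, or none of its own in a cluster of low depth. Doublets were kept in the main analysis, and the 85 barcodes with the highest Scrublet scores were removed in an alternative.

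Counts were summed per library and class with at least 10 barcodes and tested with edgeR 4.0.16 (TMM factors, filterByExpr, robust quasi-likelihood fit, R 4.3.3), with Benjamini-Hochberg adjustment over all genes of a fit and a threshold of 0.05. Classes were compared in 1 fit with the mouse as a term, and treatments within a class over its 4 groups, or in an additive fit for averaged effects. The scripts were tested on simulated counts. DESeq2 1.42.0 was an alternative. Per-library depth in a class ran from 3411 UMIs, where the floor of 3 counts is high. Intervals on pooled counts and shares are exact and cover counting error only. By the rule for named genes, the text gives all 10 members, other pathway genes by count with values for at most the 5 of largest change in a comparison, Celsr1 to Celsr3, and for each member up to 3 genes most like it. The members and gene lists were chosen with earlier results of these data known. Gene places come from GENCODE M1 (mm9), where 23006 of 31053 identifiers were found. The annotation used in counting is not given in the sources used here.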

Additional observations from a re-analysis of the deposited data

Results flagged for a closer look

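Of 81 pairs of a member and a class with 4 to 10 libraries, 23 had 1 library far from the others, by the gap to its nearest neighbour over the range (Dixon). A rate of about 1 in 20 by chance holds for normal values and need not hold for low counts. There, 1 UMI with all other libraries at 0 is always flagged, so no excess over chance is read from the 23. Of these values, 19 rest on fewer than 10 UMIs. The exceptions were Fzd3 in oligodendrocytes of mouse 9901 (138.8 CPM from 11 UMIs, next 49.3), Prickle1 in excitatory neurons of mouse 9949 (92.8 CPM from 11 UMIs), Prickle1 in oligodendrocytes of mouse 9946 (180.8 CPM from 18 UMIs, next 100.2) and Vangl1 in mural cells of mouse 9971 (167.5 CPM from 12 UMIs, next 71.8).

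In the library of mouse 9970, with few excitatory and endothelial UMIs, Dvl3 was at 146.9 CPM and Vangl2 at 73.5 CPM in excitatory neurons from 2 UMIs and 1 UMI, while Prickle2 there and Prickle1 in endothelial cells were at 0. In mural cells of mouse 9946, which had 7685 UMIs, Ankrd6 and Fzd3 were each at 130.1 CPM, Dvl1 at 260.2 CPM and Fzd6 at 390.4 CPM. In endothelial cells of mouse 9967, Dvl1 and Vangl2 were each at 109.9 CPM from 2 UMIs.

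The rest were values from 1 to 4 UMIs. Ankrd6 was at 11.1 CPM in microglia and 12.6 CPM in oligodendrocytes of mouse 9901, and Prickle2 at 22.3 CPM in microglia of that mouse. Dvl2 was at 7.37 CPM in mural cells of mouse 9969, Fzd6 at 3.20 CPM in excitatory neurons of mouse 9947 and at 2.70 CPM in microglia of mouse 9949, and Vangl2 at 85.6 CPM in inhibitory neurons of mouse 9968. Dvl3 and Vangl2 were each at 51.0 CPM in other immune cells of mouse 9971.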

How the results depend on the processing

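No paired analysis was possible because the treatment groups hold different mice, and the mouse was already a term of the fit between classes. With a mitochondrial limit of 5% the number of members called was 2 for excitatory neurons against astrocytes, 2 for astrocytes against endothelial cells and 2 for microglia against astrocytes. In these pairs only Fzd3 and Fzd6 were tested at that limit, and both were called, so the lower counts reflect fewer members tested. For excitatory against inhibitory neurons it was 2 with DESeq2, 2 with at least 500 genes, 3 with a mitochondrial limit of 25%, 2 at resolution 1.2, 2 with the polarity genes kept in the clustering, and 3 with 50 leading genes, which was chosen after seeing the data. With at least 30 barcodes it was 5 for endothelial against mural cells. Leaving out each library in turn gave 6 to 7 members for excitatory neurons against astrocytes, 0 to 1 for excitatory against inhibitory neurons (0 without mouse 9946), 4 to 5 for OPCs against oligodendrocytes, 4 to 6 for astrocytes against endothelial cells, 2 to 3 for endothelial against mural cells, 4 to 6 for microglia against astrocytes, and 0 to 0 in each of the 7 treatment comparisons. The cause of the other changes was not tested.

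Of the differences between classes of single members, 866 values under an alternative kept their side of the threshold, 49 no longer passed and 15 newly passed. None that was called changed sign. Some that were not called did, such as Dvl1 for excitatory against inhibitory neurons (0.33 in the main fit, −0.42 to 0.48 over 22 alternatives). Dvl1 in astrocytes against endothelial cells kept its call in 9 of 22 alternatives, and Dvl3 in microglia against astrocytes in 8 of 22. The class with the highest mean was kept in 20 of 20 settings for Fzd6, Prickle1, Prickle2 and Vangl2, in 18 or 19 for Vangl1, Dvl1, Dvl2, Dvl3 and Ankrd6, and in 13 for Fzd3. No member was called in a treatment comparison among 2777 values under the alternatives, of which 6.16% had the other sign. Depth limits most treatment values, since many rest on fewer than 10 UMIs in a library.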

Other observations

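The unnamed cluster, of which 99.7% of the 2350 barcodes came from CORT/Sal mouse 9970, entered no class and no comparison. Its leading genes included Gng13, Cnih2, Bc1 and Ddn. Pooled over its barcodes, Dvl1 was at 136 CPM, Prickle2 at 91.4 CPM, Fzd3 at 68.5 CPM, Dvl3 at 46.1 CPM, Ankrd6 at 37.4 CPM and Dvl2 at 36.0 CPM. Vangl2 was at 21.5 CPM. Of the genes with vascular maxima, Prickle1 was at 27.0 CPM, Fzd6 at 6.82 CPM and Vangl1 at 5.73 CPM. The pooled levels of excitatory neurons were 30.4, 0.342 and 6.15 CPM in the same order. A smaller unnamed cluster, of 68 barcodes and 267645 UMIs, also entered no class. It had Fzd3 at 262 CPM (interval 204 to 330), Vangl1 at 101 CPM (66.5 to 147), Dvl3 at 85.9 CPM (54.5 to 129) and Ankrd6 at 48.6 CPM (25.9 to 83.1). The highest pooled levels of a named class were 189, 75.2, 70.4 and 36.8 CPM in that order. These maxima therefore hold among the named classes only.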
